A study of Mus musculus with 4 samples.

Results

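MYC and its relatives are basic helix-loop-helix leucine zipper proteins that bind DNA as pairs with their common partner MAX. MYC, MYCN and MYCL paired with MAX switch on genes of growth and division, while MXD1, MXI1, MXD3, MXD4, MNT and MGA compete for the same MAX and mostly repress. In the early embryo Myc and Mycn support growth and self-renewal of the inner cell mass, and in embryonic stem cells MAX and MGA keep germline genes silent. The genes of this network were followed in mouse blastocyst outgrowths that were wild-type or lacked Tip110 (Tip110-/-). Members were the 10 genes Myc, Mycn, Mycl, Max, Mxd1, Mxd3, Mxd4, Mxi1, Mnt and Mga, each taken from the array row whose annotation held that 1 symbol. This gave 9 members of 30142 genes tested, all but Mycl, whose row is annotated with both Mycl and its older symbol Mycl1.

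Blastocysts were flushed at 3.5 days post coitum after intercrosses of Tip110+/- mice, and each was cultured for 4 to 6 days in stem cell medium with knockout serum replacement. Outgrowths contain trophoblast cells that have spread out around descendants of the inner cell mass. The sources used here do not give the strain or the design of the Tip110 allele. Per genotype there were 2 Affymetrix arrays, 1 of a pool of 3 outgrowths (replicate 1) and 1 of a single outgrowth (replicate 2). Values are normalized log2 signals as the authors deposited them, so 1 unit is a 2-fold difference, and means are given with the SD of 2 arrays.

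Several properties of whole arrays differed along with genotype. Wild-type outgrowths had yielded 249 and 178 pg of RNA each and Tip110-/- outgrowths 55.0 and 144 pg. Positive control rows had medians of 9.80 and 9.66 on the wild-type and 8.69 and 9.51 on the Tip110-/- arrays, lowest in the Tip110-/- pool, and the median over genes was 4.21 to 4.22 in wild type and 4.32 to 4.45 in Tip110-/-. The 23 rows of antigenomic probes, which match no mouse sequence, had a 95th percentile of 4.24 to 4.71, used here as the background level. Sart3, which encodes Tip110, read 4.94 and 5.98 on the wild-type arrays against 4.28 and 4.54 on the others. Both Tip110-/- values were under the background level of their arrays, 4.69 and 4.71. Whether its probes lie in the deleted part is not stated. Of 9 trophoblast progenitor and epithelial markers the 3 brightest in wild type, Krt8, Krt18 and Eomes, were well above background on all arrays. Others were not: Esx1 was at background on all 4 arrays and Ascl2 above it on 3, both outside the naming rule. The list had a median difference of 0.60, with 0 genes at an unadjusted limma p under 0.05. All 7 fibroblast markers tested were at or below background. With 2 arrays per genotype the number of arrays limits precision throughout, and p-values measure only the spread between these arrays.

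The network's binding site is the E-box CACGTG, which reads the same on both strands. Of 10 genes, 9 matched a RefSeq promoter window (GRCm38.p6, 250 bases before to 50 after a transcript start): Mycn, Mycl, Max, Mxd1, Mxd3, Mxd4, Mxi1, Mnt and Mga. The E-box occurred in the windows of Mnt, Mxd4 and Max, that is in 3 of 11 windows, against 7.15% of all 32851 windows. The Mycn window instead held 3 overlapping or adjacent copies of an E2F-type motif, searched as TTTGGCGC or TTTCGCGC on both strands, which 0.813% of all windows held. The stretches around these motifs are shown because they hold the letters of the network's own site, or of the E2F site known for the MGA partner E2F6, in promoters of the members; motif letters are in capitals.
Mnt, chr11:74830771-74830836, plus strand: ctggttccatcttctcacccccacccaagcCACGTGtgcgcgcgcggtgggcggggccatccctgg
Mxd4, chr5:34187894-34187959, minus strand: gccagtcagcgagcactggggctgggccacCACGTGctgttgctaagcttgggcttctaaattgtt
Max, chr12:76962224-76962281, minus strand: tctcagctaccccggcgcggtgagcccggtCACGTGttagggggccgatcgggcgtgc
Mycn, chr12:12941967-12942049, minus strand: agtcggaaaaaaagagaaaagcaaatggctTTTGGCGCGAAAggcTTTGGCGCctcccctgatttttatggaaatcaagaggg
The E-box of Mnt starts 123 bases, and that of Mxd4 219 bases, before the transcript start, while that of Max spans it. A match is a description of these letters and not evidence of binding.

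Myc was the member with the largest difference between genotypes, and it was higher in Tip110-/- outgrowths. Wild-type arrays read 11.15 and 10.95, and Tip110-/- arrays 12.52 and 13.82. Both Tip110-/- arrays lay above both wild-type arrays, and the single Tip110-/- outgrowth was the highest. The means were 11.05 ± 0.14 (SD, n = 2) and 13.17 ± 0.92 (SD, n = 2), a difference of 2.12 ± 0.60 (SE) or 4.35-fold, with a 95% interval of 0.58 to 3.67. Its unadjusted p was 0.0167 and it did not pass after adjustment over all genes (limma adjusted p = 0.343). The unadjusted limma p missed 0.05 without moderation (0.0845) and on leaving out wild-type replicate 2 (0.0575) or Tip110-/- replicate 2 (0.0782). The difference was larger between the single outgrowths, at 2.88, than between the pools, at 1.37. Centring each array on its positive controls gave 10.76 and 10.71 against 13.24 and 13.73, a difference of 2.75, and Myc then passed (limma adjusted p = 0.00211). In that setting 680 genes passed (2.26%), the median gene differed by 0.78, and limma used the same variance for genes of equal signal.

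Mycn, the family member most associated with embryonic progenitors, was close to background in every array. It read 4.95 and 5.25 in wild type against 5.42 and 4.92 in Tip110-/-. The groups overlapped, with a difference of 0.07 ± 0.28 (SE) and a 95% interval of -0.66 to 0.80 (limma adjusted p = 0.906). At levels this close to background a fall can hardly be measured. Its sign turned when arrays were centred on the gene median, to -0.09. The row shared by Mycl and its older symbol, outside the rule and added after the data were seen, lay at 4.35 and 4.50 against 4.78 and 4.45, also near background and overlapping. Mycn was above the background level on all 4 arrays, but by less than 1 unit, and Mycl on 2, while Myc was far above it on all 4.

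**Figure D1:**
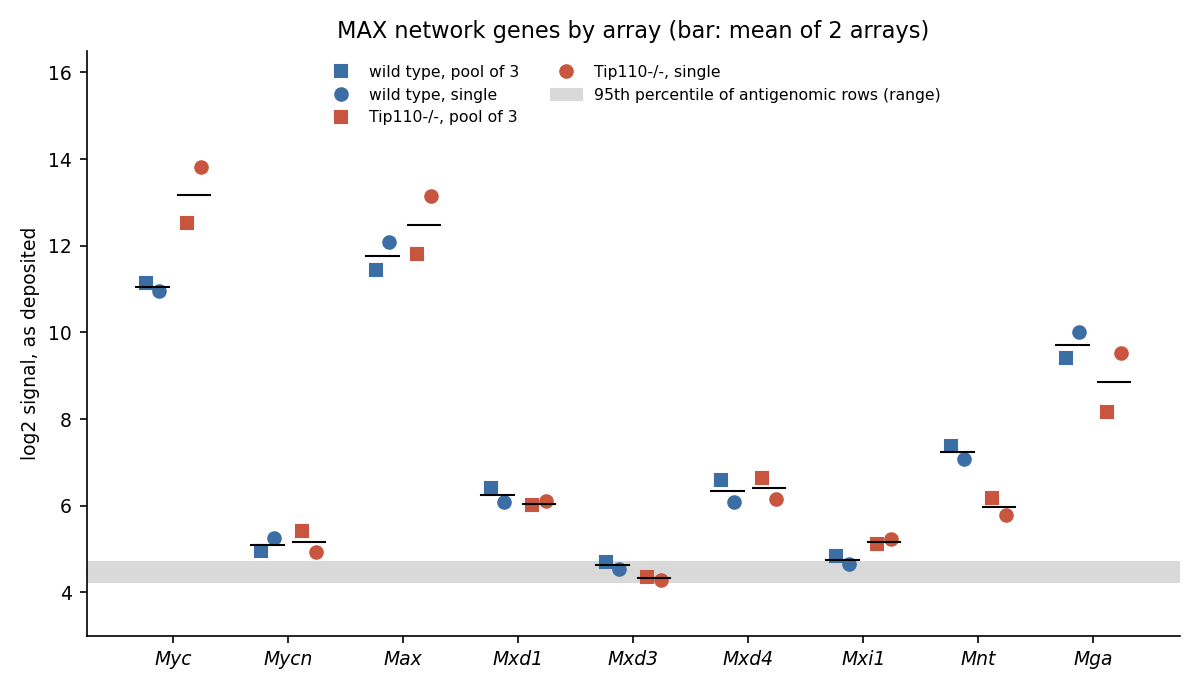
Log2 signal of the 9 measured members on each of the 4 arrays, blue for wild type and red for Tip110-/-, squares for pools of 3 outgrowths and circles for single outgrowths, with black bars at the mean of 2 arrays. The grey band is the range over arrays of the 95th percentile of antigenomic rows, 4.24 to 4.71; Myc lies at 10.95 to 11.15 in wild type and 12.52 to 13.82 in Tip110-/-, and Mnt at 7.07 to 7.38 and 5.79 to 6.17.

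Max, the common partner of the other members, was at 11.45 and 12.08 in wild type against 11.81 and 13.15 in Tip110-/-. The groups overlapped, since the Tip110-/- pool lay between the wild-type arrays. The difference was 0.72 ± 0.64 (SE), with a 95% interval of -0.92 to 2.36 (limma adjusted p = 0.572). It was 0.04 without Tip110-/- replicate 2 and 1.39 without Tip110-/- replicate 1.

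Among the repressive members, Mnt stood out. MNT is a broadly expressed antagonist of MYC that recruits SIN3 corepressors. It read 7.38 and 7.07 in wild type against 6.17 and 5.79 in Tip110-/-. Both Tip110-/- arrays lay below both wild-type arrays, and the arrays of a genotype were close to each other. The difference was -1.25 ± 0.38 (SE), 2.38-fold lower in Tip110-/-, with a 95% interval of -2.21 to -0.29, an unadjusted p of 0.0206 and a limma adjusted p of 0.348. The unadjusted p rose to 0.0818 when wild-type replicate 1 was dropped, 0.0939 when Tip110-/- replicate 2 was dropped and 0.401 with positive-control centring. It was nearly equal between pools, at -1.22, and between single outgrowths, at -1.28. With arrays centred on the positive controls the difference was -0.62 and the groups overlapped, since the Tip110-/- pool, at 6.89, lay above the single wild-type outgrowth, at 6.83.

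Mga, a giant protein that carries a T-box domain beside its helix-loop-helix domain and serves as scaffold of a Polycomb complex, was at 9.40 and 10.01 in wild type against 8.16 and 9.53 in Tip110-/-. The single Tip110-/- outgrowth lay within the wild-type range and the pool below it. The difference was -0.86 ± 0.68 (SE), with a 95% interval of -2.61 to 0.90 (limma adjusted p = 0.535). Without Tip110-/- replicate 1 it was -0.18, and without Tip110-/- replicate 2 it was -1.54.

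The MXD family, small repressors that rise as cells leave division and differentiate, had small differences beside that of Myc. Mxd1 was at 6.41 and 6.09 in wild type against 6.01 and 6.10 in Tip110-/-, a difference of -0.20 ± 0.32 (SE). Mxd4 was at 6.60 and 6.09 against 6.65 and 6.15, a difference of 0.06 ± 0.39 (SE). In both genes the groups overlapped, and in Mxd4 the pool exceeded the single outgrowth by 0.51 in each genotype. Mxi1 was at 4.85 and 4.65 against 5.11 and 5.23, so that the Tip110-/- arrays were higher without overlap, by 0.42 ± 0.21 (SE). Mxd3, the member linked to the S phase of cycling cells, was at 4.70 and 4.55 against 4.35 and 4.29, lower without overlap by -0.30 ± 0.17 (SE). Mxi1 and Mxd3 lay near background, where a difference understates any change, and neither reached an unadjusted p of 0.05 (0.109 and 0.136). Their limma adjusted p-values, with those of Mxd1 and Mxd4, ran from 0.428 to 0.95. Under positive-control centring Mxd1 turned to 0.43 and Mxd3 to 0.33.

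**Figure D2:**
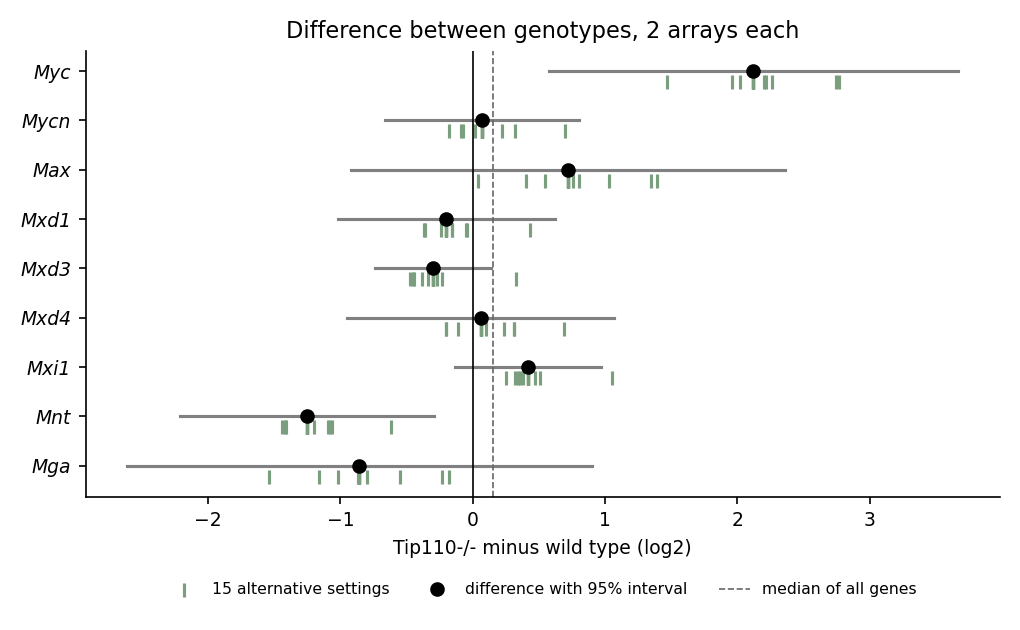
Difference between genotypes for each member in log2 units, with its 95% interval from limma (grey line) and the same difference under 15 alternative settings (green ticks). The dashed line marks the median of all genes, 0.15; only the intervals of Myc, 0.58 to 3.67, and Mnt, -2.21 to -0.29, do not reach 0.

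Across the 9 members 0 passed after adjustment and 2 had an unadjusted p under 0.05, of which Myc was higher and Mnt lower. The remaining 7 did not reach that level. Over all genes 8.99% were higher and 3.67% lower at it, 3817 genes or 12.7% in all, and after adjustment limma called 0 of 30142 genes, as did the same model without moderation. At 12.7% about 1 gene in 9 would be counted, so 2 of 9 is close to the background and says nothing about the network as a group. The members' median difference was 0.06, against 0.15 for all genes. In 2 members the Tip110-/- arrays were higher without overlap and in 2 they were lower, where all genes gave 39.9% and 12.9%, together 52.9%. All 9 members lay above the median gene, where 23.5% of genes were higher and 23.1% lower without overlap. Neither count of members says more of them than of genes in general. Relative to the median of all genes Myc differed by 1.97 and Mnt by -1.40. The split of all genes at the unadjusted level depended on scaling: 71.0% of 3817 were higher as deposited, 46.4% after quantile normalization, 33.3% with arrays centred on the gene median, 43.2% with cyclic loess and 82.7% with positive-control centring.

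A log ratio of 2 genes within an array does not move with a shift that is equal for all genes of that array. For each of the 8 ratios of Myc to another member the lower Tip110-/- value exceeded the higher wild-type value. Myc alone was higher without overlap, as were 39.9% of all genes and 23.5% of those above the median gene. The share of such ratios over all genes was not computed, so this count is no result about the members. Myc minus Mnt was 3.77 and 3.88 in wild type against 6.35 and 8.04 in Tip110-/-, a difference of 3.37 or 10.4-fold, which was 2.53 without Tip110-/- replicate 2 and 4.21 without Tip110-/- replicate 1. Myc minus Mga was 1.75 and 0.94 against 4.36 and 4.30, a difference of 2.98. Myc minus Max was -0.30 and -1.13 against 0.71 and 0.67, a difference of 1.40. The ratios to Max and Mga were almost the same in the Tip110-/- arrays, in which Myc, Max and Mga were each lower in the pool than in the single outgrowth, by -1.30, -1.35 and -1.36, where the positive controls differed by -0.82. Myc minus Mycn was 6.20 and 5.70 against 7.10 and 8.90, a difference of 2.05 that ran from 1.15 to 2.96 with 1 array left out. The ratios to Mxd1, Mxd4 and Mxi1 differed by 2.32, 2.07 and 1.71, and by 1.71, 1.16 and 1.11 without Tip110-/- replicate 2. Mxd3 was above the background level on 1 of 4 arrays, so its ratio follows Myc alone and is no measure of unequal change. Mycn and Mxi1 were above that level on all 4 arrays but close to it, so their ratios also follow mainly Myc. With 2 arrays against 2 the exact permutation test, two-sided, cannot go below p = 0.333, which each of the 8 ratios reached, also after adjustment. These 8 ratios share the values of Myc and are not independent of each other. A ratio of genes well above background describes unequal change on these arrays, and its level is no measure of relative abundance. It still moves with array differences that depend on signal, and the part of these was not tested. Over genes the Tip110-/- pool had the higher median, 4.45 against 4.32 in the single Tip110-/- outgrowth. Its positive controls were lower, 8.69 against 9.51.

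**Figure D3:**
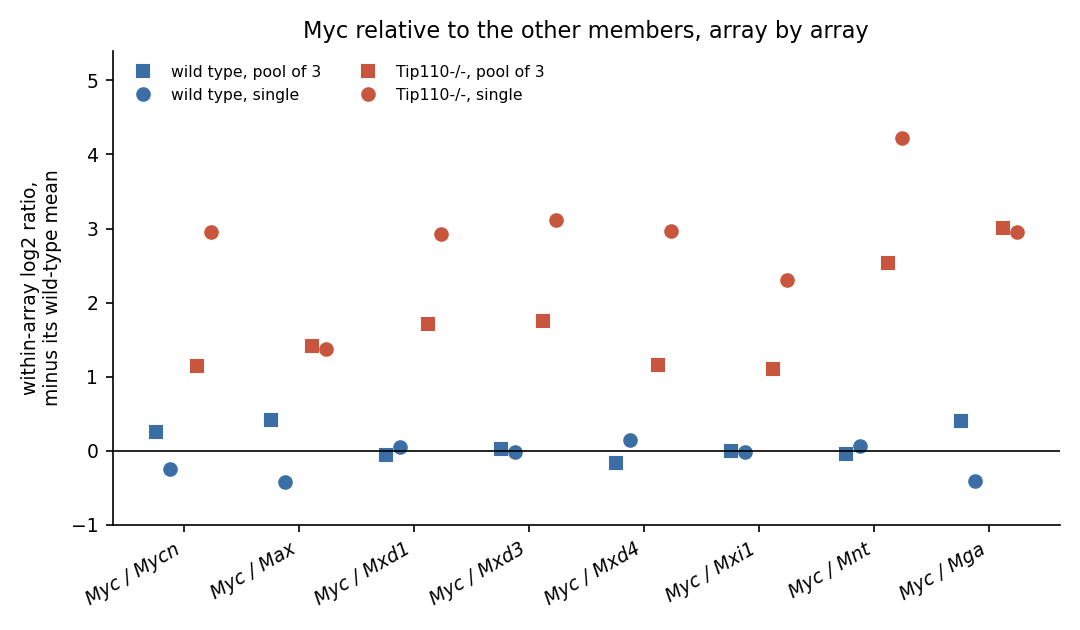
Within-array log2 ratio of Myc to each of the other 8 members, shifted so that the wild-type mean of each ratio is 0, with colours for genotype and squares or circles for pools or single outgrowths. Both Tip110-/- arrays lie above both wild-type arrays for every ratio, with the smallest gap for Mycn, 0.90, and the largest for Mga, 2.54. The same holds for the signal of Myc alone. Mxd3 is above background on 1 of 4 arrays, and Mycn and Mxi1 are close to it on all 4.

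Markers of cell types and of cell division differed between the same arrays. Of 10 trophoblast giant cell and placental markers 7 were higher at an unadjusted p under 0.05, with a mean over the list of 9.16 and 8.18 in wild type against 10.87 and 11.95 in Tip110-/-. Prl2c2, Plet1 and Prl5a1 were its brightest genes in wild type. Prl2c2 was not among the 7 and overlapped, at 17.44 and 16.68 in wild type against 17.17 and 18.33 in Tip110-/-. Prl3d1 and Prl3b1, also on this list but outside the naming rule, were not measured. Of 12 epiblast markers, led by Dppa5a, Nanog and Tdgf1, 11 were lower, with list means of 10.64 and 11.00 against 7.75 and 6.03. Of 11 mitosis genes, led by Plk1, Mki67 and Cdc20, 10 were lower, with list means of 8.94 and 9.56 against 6.86 and 5.57. None of the genes on these 3 lists was at background on all 4 arrays. All of them lay above the median gene, where 4.98% of genes were higher and 7.11% lower at the unadjusted level. The lists of primitive endoderm, led by Sparc, Lamb1 and Lama1, and of blood and immune cells, led by Cd68, Cd14 and Ptprc, had medians of 0.27 and 0.26. At background on all 4 arrays were 2 of 12 endoderm genes and 2 of 4 blood and immune genes, Ptprc among the latter. Cd14 was above background on 2 arrays, and Lamb1 read 10.05 and 4.43 on the wild-type arrays. The part of these cell types in the difference of Myc or Mnt was not tested, and in these bulk samples fewer cells of a type and less RNA per cell cannot be told apart.

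Part of the genes that MYC is known to activate were lower in Tip110-/- outgrowths, in which Myc itself was higher. Of 30 measured activated targets, 6 had an unadjusted p under 0.05 as lower, 0 as higher and 24 neither, and in 17 the Tip110-/- arrays lay below wild type without overlap. The count of 6 was 2 without wild-type replicate 1 and with positive-control centring, 3 on leaving out wild-type replicate 2 or Tip110-/- replicate 1, without moderation and with a replicate block, 4 without Tip110-/- replicate 2, and 10 with no intensity trend. All 30 were above the median gene in signal, and of all genes above it 7.11% were lower and 4.98% higher at the unadjusted level, and 23.1% were lower and 23.5% higher without overlap. The list median was -0.45, against 0.15 for all genes, and turned to 0.18 with positive-control centring, where the median of all genes was 0.78. The 6 were the pre-ribosome factor Bop1 at -3.20, the cyclin-dependent kinase Cdk4 at -2.55, the telomerase and snoRNP protein Dkc1 at -1.90, the purine synthesis enzyme Gart at -1.73, the pyrimidine synthesis enzyme Cad at -1.53 and the ornithine decarboxylase Odc1 at -1.50. Their limma adjusted p-values ran from 0.293 for Bop1 to 0.385 for Gart. Odc1, a classical MYC target, was at 14.36 and 13.68 in wild type against 12.11 and 12.93 in Tip110-/-, and Cad at 9.94 and 9.74 against 8.43 and 8.19. Wdr12 at -1.31 and the serine hydroxymethyltransferase Shmt2 at -1.08 did not reach the unadjusted threshold. Other targets had differences near 0: the nucleolar protein Npm1 differed by -0.23, the lactate dehydrogenase Ldha by 0.22 and the phosphatase Cdc25a by -0.01, chosen after their values were seen. The mitosis list above was lower in the same arrays, and its part was not tested.

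The window of Cdk4 holds 4 E-boxes, shown here because it was the 1 of the 6 lower targets with an E-box window, at 13.65 and 13.82 in wild type against 12.20 and 10.18 in Tip110-/-.
Cdk4, chr10:127063333-127063559, plus strand: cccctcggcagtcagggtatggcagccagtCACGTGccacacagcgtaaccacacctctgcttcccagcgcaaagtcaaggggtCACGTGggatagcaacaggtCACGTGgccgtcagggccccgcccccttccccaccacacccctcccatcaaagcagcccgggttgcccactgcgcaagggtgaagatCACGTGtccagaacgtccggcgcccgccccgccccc
Of 39 windows of activated targets 20.5% held an E-box, against 7.15% of all windows. These belong to 7 genes, and the other 6, which the naming rule does not cover, did not reach the unadjusted threshold: Hspd1 differed by -0.65, Eif4e by -0.19, Eif4a1 and Nme1 each by -0.16, Pes1 by 0.16 and Ldha by 0.22. Over all genes, the 1609 genes with an E-box window had a median difference of 0.10, against 0.14 for the 17970 genes with any window. Of the E-box genes 4.66% were higher and 5.41% lower at the unadjusted level, against 7.90% and 3.90% of all genes with a window. Among genes above the median gene 4.98% were higher and 7.11% lower. The E-box genes were not matched for signal, so these shares are no result about the E-box.

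Among 9 genes that MYC is known to repress, Cdkn1a, the p21 inhibitor of cyclin-dependent kinases, was higher in Tip110-/- along with Myc. It was at 14.04 and 13.66 in wild type against 14.79 and 16.83 in Tip110-/-, a difference of 1.96 with an unadjusted p of 0.039 (limma adjusted p = 0.384). No other gene of this list reached the unadjusted threshold; Ndrg2 differed by -1.62 and Klf4 by -0.81, and the cyclin-dependent kinase inhibitors Cdkn1b and Cdkn2b, outside the naming rule, were at background. The list median was -0.12, within the range from -0.28 to 0.51 over alternatives. A count of 1 higher and 0 lower among 9 genes is near the 8.99% higher and 3.67% lower over all genes. It says nothing about the list as a group.

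Of 10 coactivators and chromatin partners of MYC 2 were lower at the unadjusted level, the scaffold Trrap at -1.97 and the actin-like subunit Actl6a at -2.22, and 0 higher. All 10 lay above the median gene, where 7.11% of genes were lower and 4.98% higher; over all genes 3.67% were lower. Trrap was at 9.08 and 8.20 in wild type against 6.75 and 6.59 in Tip110-/-. The chromatin remodeller Ep400 differed by -1.21 and the elongation cyclin Ccnt1 by 1.21 without reaching it. Their median was -0.60. It was -0.30 when wild-type replicate 2 was dropped, -0.97 when Tip110-/- replicate 2 was dropped and 0.03 with positive-control centring. The count of 2 was 1 with that centring and with any array but wild-type replicate 1 left out. Of 11 genes of MYC protein turnover, all above the median gene, 3 were lower and 0 higher at the unadjusted level, beside the same 7.11% and 4.98%: the phosphatase subunit Ppp2r5a at -2.47, the deubiquitinase Usp28, which counteracts the ubiquitin ligase FBXW7, at -2.46, and the mitotic kinase Aurka at -1.49. The count of 3 was 2 with any array but wild-type replicate 1 left out and 1 without moderation. This count also depended on scaling. It was 2 with quantile normalization, cyclic loess or positive-control centring, and 4 with arrays centred on the gene median. The median of the 11 genes was -0.16, and 0.47 with positive-control centring. The kinase Gsk3b differed by 1.44 and Bin1 by 1.23. Fbxw7 itself was at 5.08 and 5.59 against 5.44 and 5.26, an overlap with a difference of 0.01, chosen after its values were seen.

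Of 7 measured genes of the corepressor complex through which MXD proteins and MNT act, 2 were lower at the unadjusted level, Sap30 at -5.47 and the histone deacetylase Hdac2 at -1.49, and 0 higher. All 7 lay above the median gene, where 7.11% were lower. The list median was -1.19. Sap30 was at 13.23 and 13.11 in wild type against 9.31 and 6.10 in Tip110-/-. The scaffold Sin3a differed by -1.78 and Hdac1 by -1.19 without reaching the threshold, and their wild-type arrays were 2.34 and 1.57 apart, with the single outgrowth higher. The count of 2 was 1 with any array but wild-type replicate 1 left out, and also with quantile normalization, cyclic loess, positive-control centring, no moderation or a replicate block. The list median was -0.60 without wild-type replicate 2 and -0.56 with positive-control centring, where all genes shifted by 0.78. The parallel MLX arm of the network had Mlx, the partner of the glucose-sensing Mondo proteins, at 9.12 and 8.19 in wild type against 10.73 and 9.66 in Tip110-/-, higher without overlap by 1.54 ± 0.67 (SE; limma adjusted p = 0.4). Mlxip differed by 0.24 and Mlxipl was at background.

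MGA works within a variant Polycomb complex, PRC1.6. Of 9 measured partners, all above the median gene, 2 were lower at the unadjusted level and 0 higher, beside 7.11% and 4.98% of genes above it. The count of 2 was 1 with positive-control centring. Pcgf6, the subunit that defines this complex, was at 5.51 and 5.87 in wild type against 4.55 and 4.23 in Tip110-/-, a measured difference of -1.30 ± 0.26 (SE; limma adjusted p = 0.318). Both Tip110-/- values were under the background level of their arrays, so their own level is not measured. The wild-type mean of 5.69 was 1.99-fold above the mean background level of 4.70 on the Tip110-/- arrays. That value takes no account of the spread between arrays or of scaling. The 95% interval of the measured difference was -1.96 to -0.64. The heterochromatin protein Cbx1 differed by -2.63, from 9.29 and 9.38 to 6.94 and 6.46. L3mbtl2 differed by -1.14 and E2f6 by 0.51 without reaching the threshold, and the list median was -0.16. It was -0.48 without Tip110-/- replicate 2 and 0.47 with positive-control centring.

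Of the germline genes that MAX and MGA hold down in embryonic stem cells, 12 were measured, and 0 reached an unadjusted p of 0.05 in either direction. The list median was 0.11, which ran from -0.14 to 0.74 over 15 alternatives and was below 0 in 5 of them. Of these genes 4, Tex101, Stra8, Tdrd1 and Meioc, were at background on all arrays. Dazl had the largest difference, -1.53 ± 1.40 (SE), and its groups overlapped: wild-type arrays read 8.61 and 11.56, and the single Tip110-/- outgrowth 7.10, which was 2.90 below the pool. Slc25a31, above background on 2 of 4 arrays, was at 4.87 and 4.07 against 5.73 and 4.41, a difference of 0.60. E-boxes were common in these promoters, in 9 of 14 windows or 64.3%, against 7.15% of all windows. Examples are given for the helicase gene Ddx4, the cohesin gene Stag3 and Taf7l, chosen after their values were seen. They show the site that these promoters have in common with those of Mnt, Mxd4 and Max.
Ddx4, chr13:112652304-112652369, minus strand: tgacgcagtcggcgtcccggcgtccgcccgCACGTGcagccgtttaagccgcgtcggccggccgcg
Stag3, chr5:138280309-138280374, plus strand: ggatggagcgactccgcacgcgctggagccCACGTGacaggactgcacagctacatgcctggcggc
Taf7l, chrX:134476504-134476569, minus strand: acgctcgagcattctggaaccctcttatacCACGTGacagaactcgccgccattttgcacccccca
Ddx4 was at 4.66 and 5.01 in wild type against 5.15 and 5.02 in Tip110-/-, Stag3 at 6.04 and 6.47 against 6.56 and 6.18, and Taf7l at 4.29 and 4.90 against 4.79 and 4.57. The difference was 0.25 for Ddx4, 0.12 for Stag3 and 0.08 for Taf7l, each smaller than the gap between the wild-type arrays.

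**Figure D4:**
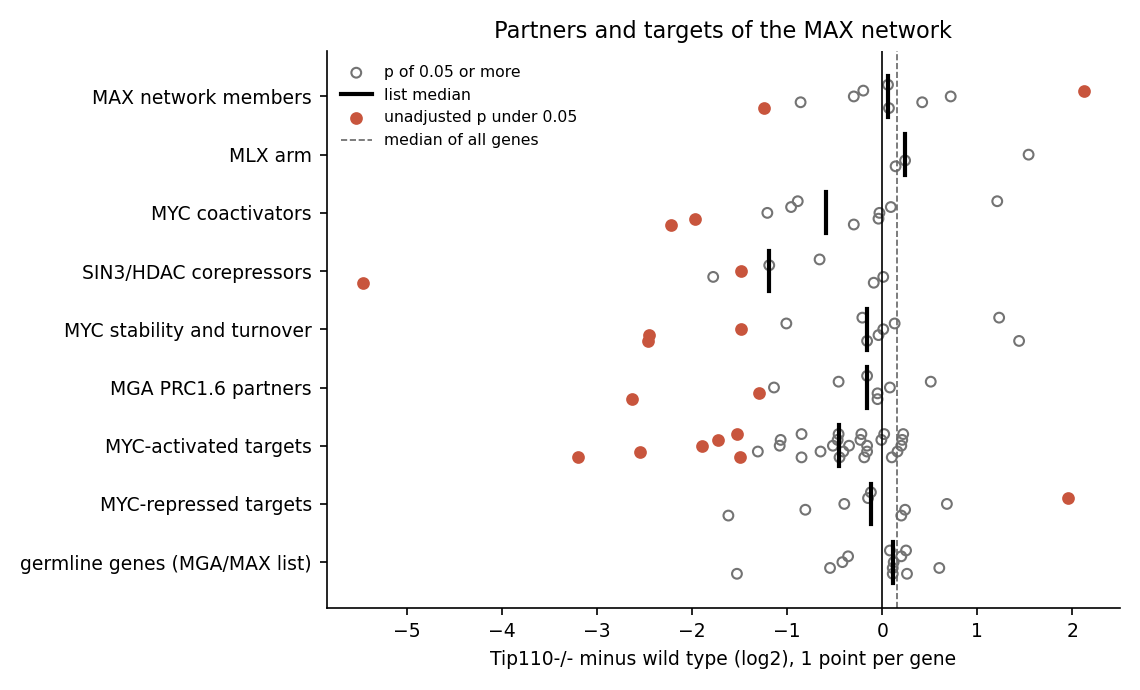
Difference between genotypes for every measured gene of the network and of 8 lists of its partners and targets, with filled points at an unadjusted limma p under 0.05 and black bars at list medians. Activated targets reach from -3.20 to 0.22 with a median of -0.45, and corepressor genes from -5.47 to 0.01 with a median of -1.19; the dashed line is the median of all genes, 0.15.

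Among 10079 other protein-coding genes above the median signal, those with the pattern most like Myc over the 4 arrays, by the Euclidean distance between values centred on each gene's mean, were Rdh11 (0.159), Lrrfip2 (0.177), 4930523C07Rik (0.22), Gsr (0.221) and Sox8 (0.325). Rdh11, a retinol dehydrogenase, was at 6.68 and 6.39 in wild type against 8.01 and 9.14 in Tip110-/-. Gsr, the glutathione reductase, was at 8.57 and 8.40 against 9.76 and 11.02. The genes most like Mycn were Zdhhc1, Tmem35a, Rabep2, B3gnt5 and Asb7, at distances of 0.0552 to 0.0762, and their signals lay between 4.17 and 5.93. With 4 arrays, such likeness describes these arrays only.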

How the data were processed

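RNA of 4 outgrowth samples was measured on Affymetrix whole-transcript mouse arrays, labelled from 144 pg per the labels' protocols and from 100 pg per the series' design text. The deposited values are log2 signals (log base inferred from their range) in 72688 rows; the submitters' processing notes name the tools Transcriptome Analysis Console and Affymetrix Expression Console, and the normalization algorithm is not given in the sources used here. Rows were named by the platform annotation: 30604 held 1 symbol, updated by Entrez ID (GRCm38.p6), 2146 held several and 33206 none. Rows with several or no symbols and 6732 control rows were left out; of several rows of a gene the brightest was kept. Groups followed the sample titles. Each of 30142 genes was fitted with limma 3.58.1 (R 4.3.3; lmFit and eBayes with trend, genotype as the only term), two-sided, Benjamini-Hochberg threshold 0.05. Positive controls are taken as exons of widely expressed genes, which the files do not state. The fit was tested on data simulated with independent noise from its own variance model. No array-wide differences were simulated, so that test does not cover those seen here. Members, gene lists and the naming rule were chosen with earlier results of these data known. Named are all members; from each partner or target list every gene at an unadjusted p under 0.05 and up to 2 others with the largest differences; the 3 brightest wild-type genes of each marker list (fibroblast markers as a list only); Sart3; and the 5 genes nearest to Myc and to Mycn. Genes named outside this rule are marked where they appear. Alternatives were 4 scalings, a filter at the median gene, 2 variance models, array weights, a replicate block, the mean of a gene's rows, each array left out and, added after seeing the data, rows holding older symbols of 1 gene. Promoter windows are from RefSeq.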

Additional observations from a re-analysis of the deposited data

How the results depend on the processing

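With 15 alternatives per member, 5 members (Myc, Max, Mxi1, Mnt and Mga) kept their direction in all of them. Their differences ran from 1.47 to 2.77 for Myc (limma adjusted p from 0.00211 to 0.679), 0.04 to 1.39 for Max, 0.25 to 1.05 for Mxi1, -1.44 to -0.62 for Mnt and -1.54 to -0.18 for Mga. Centring on positive controls called Myc (2.75) and 680 genes in all, against 0 in the other settings, and turned Mxd1 to 0.43 and Mxd3 to 0.33; there limma pooled the variance fully, and the cause was not tested. Centring on the gene median turned Mycn to -0.09 and Mxd4 to -0.11. Leaving out each array gave -0.18 to 0.32 for Mycn and -0.20 to 0.31 for Mxd4. Genes at an unadjusted p under 0.05 numbered 1736 with only genes above the median, where 15071 genes enter, and 2240 to 5522 with 1 array left out. The unadjusted p of Myc was 0.0845 without moderation, 0.0575 with wild-type replicate 2 left out and 0.0782 with Tip110-/- replicate 2 left out; that of Mnt was 0.0818 when wild-type replicate 1 was dropped, 0.0939 when Tip110-/- replicate 2 was dropped and 0.401 with positive-control centring. The medians of the activated targets were -0.28 and -0.66 without Tip110-/- replicate 1 or 2. A replicate block left the difference of Myc at 2.12 (limma adjusted p = 0.424) and 0 genes called. Equal numbers mark pools or single outgrowths and nothing pairs them otherwise: the pool-minus-single deviations of the genotypes had r = -0.0903 over 30142 genes.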
